A study of Rattus norvegicus with 6 samples.

Results

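Microexons are exons so short that they add only a handful of amino acids to a protein. They are best known from neurons, where many are included through activators such as Srrm4 and Srrm3. RNA-binding proteins of the Nova, Rbfox and Ptbp families also regulate such exons, with Ptbp1 acting as a repressor of neuronal exons. A cassette exon is one that a transcript either carries or skips between the same flanking splice sites. Beta cells, the islet cells that secrete insulin, share much of their machinery for regulated secretion with neurons. The exons described here are the cassette exons of 51 nucleotides (nt) or less in the transcript assembly of rat beta cells, found by looking for an internal exon of one transcript whose flanking introns were replaced in another transcript of the same gene by a single intron joining the same outer splice sites. There were 1096 such microexons, 15.7% of the 6969 distinct cassette exons in the assembly, and they lay in 910 gene models.

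Primary rat beta cells were sorted by fluorescence, 3 batches in all, and transfected for 16 h with 30 nM of siRNA, followed by 48 h of recovery. In each batch, control cells received a negative control siRNA and knockdown cells received an siRNA against Nova1, a splicing regulator of neurons. This gave 3 control and 3 Nova1 knockdown libraries of poly(A) RNA, with no untransfected cells among them. The labels give neither strain nor age of the rats and do not say if each batch had its own animals, so p-values here measure the spread between these batches. All values are given in the order of batches 1, 2 and 3.

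Depth was high and uneven: the 3 controls held 292432076, 122637234 and 199930608 assigned reads, and the 3 knockdowns 130251486, 95394043 and 146453308, so the control was deeper in every batch and depth and treatment cannot be told apart. Ins1, a rat insulin gene that marks beta cells, stood at 190653 to 312886 RPKM (reads per kilobase of transcript, normalised to the size of the library) in control and 139929 to 310172 RPKM after knockdown, while endothelial markers stayed at 0.284 RPKM or less in total. The summed level of 6 stellate cell and fibroblast markers was 6.65 to 14.9 RPKM in control and 16.6 to 22.2 RPKM after knockdown. Of these 6 markers, 3 did not overlap between the groups, with knockdown higher (Col1a1, Col1a2 and Col3a1; 4.76% of all genes tested did so), and none was listed at 0 in any library. Among 45 markers of all cell types looked at, 4 passed the gene-level test (limma voom), while 1.71% of all 15983 genes tested did so. Col3a1 rose by 1.26 on the log2 scale and the macrophage gene Lyz2 by 1.43 (limma voom, adjusted p = 0.042 each). C1qa, another macrophage gene, and the acinar gene Ctrb1 fell by 0.47 and 0.40 (limma voom, adjusted p = 0.046 each). Summed levels overlapped for 5 immune markers (13.7 to 16.3 RPKM in control, 12.7 to 23.1 after knockdown) and for 6 acinar markers. The acinar sum was still lower after knockdown in each batch, at 381, 264 and 131 RPKM in control and 288, 222 and 95.7 after knockdown. The part of these markers in the results below was not tested. Nova1, the targeted gene, had 20.6, 21.5 and 17.4 CPM (counts scaled to library size) in control and 7.76, 10.2 and 9.43 CPM after knockdown, so the groups did not overlap, and it fell by 1.12 on the log2 scale (standard error 0.11, adjusted p = 0.038, limma voom). This call was lost without the replicate block (adjusted p = 1.00), without batch 1 (0.138) and without batch 2 (0.145), while the direction stayed. In RPKM, which depends on how reads are divided among the transcripts of the gene, Nova1 stood at 5.06, 2.83 and 2.03 in control and 1.38, 2.38 and 1.81 after knockdown, and there the groups overlapped.

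Inclusion is the share, in percent, of the RPKM of both forms that the including transcripts held in a library. Of the 1096 microexons, 825 (75.3%) averaged at least 1 RPKM over both forms and all 6 libraries and are called measured here; the other 271 lay below this level, and 11 of those were listed at 0 in every library for both forms. The filter used only the sum of both forms, so it did not depend on inclusion. Reads of the including and skipping forms come mostly from sequence that both share, and inclusion is therefore an estimate whose error is larger than counting error alone. Both forms together had a median of 2630 assigned reads in the library where an exon was covered least, and 19 exons had under 100 there. Both forms held a median of 97.6% of the RPKM of the gene. Each form was summed over all its transcripts, which can also differ elsewhere in the gene. For 640 of the 825 exons the assembly held pairs that differ by the exon alone, with all other introns the same. Inclusion over such pairs can lie far from the summed value, so the levels below depend on this summing.

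Sizes were dominated by whole codons. Of all microexons, 789 (72.0%) had a size divisible by 3, which leaves the reading frame open where the exon is coding. The median size was 36 nt and the commonest size was 51 nt, with 83 exons. Among those measured the share divisible by 3 was 92.3% at 3 to 15 nt, 89.9% at 16 to 27 nt and 65.7% at 28 to 51 nt, beside 56.3% of the 4403 measured cassette exons above 51 nt. At the other end, 16 entries of the assembly were only 1 or 2 nt long, and 5 of these shared a splice site with another microexon.

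**Figure D1:**
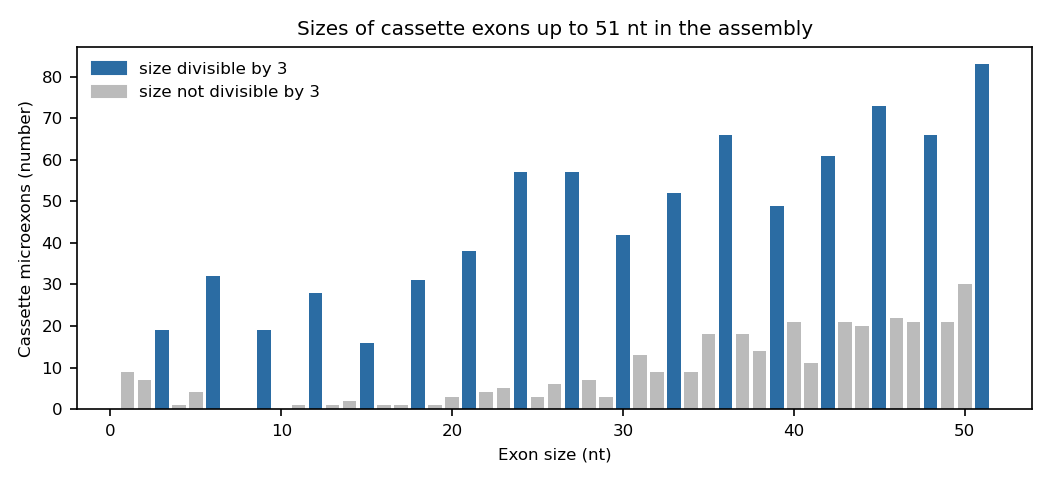
Number of cassette microexons in the assembly (vertical axis) at each exon size in nt (horizontal axis), with sizes divisible by 3 in blue and all others in grey. The blue bars stand above their grey neighbours from 3 nt upwards, and the highest bar is that of 51 nt with 83 exons.

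Splice sites around the shortest microexons lay close by. At 3 to 15 nt the median upstream intron was 1015.5 nt and the median downstream intron 727.5 nt, against 1717 and 1842 nt over all measured microexons and 2287 and 2231 nt for longer cassette exons. A flanking intron under 50 nt, as written in the assembly, occurred beside 11 of 90 measured microexons of 1 to 15 nt, 4 of 735 of 16 to 51 nt and 2 of 4403 longer cassette exons. Among those 15 was a 5 nt exon of Tgoln2, a trans-Golgi network protein, with 18 nt of intron downstream. The including form matched a reference transcript for 465 measured microexons (56.4%) and for 93.6% of those of 3 to 15 nt. A skipping form in the reference was found for 45.9% of measured microexons, against 31.3% of longer cassette exons. The assembly marks no coding regions, so whether an exon lies in coding sequence or in an untranslated region is not given here.

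Most microexons were neither fully included nor fully skipped in beta cells. Mean inclusion over the 3 control libraries was between 10% and 90% for 599 of the 825 (72.6%), below 10% for 117 (14.2%) and above 90% for 109 (13.2%). For longer cassette exons the same shares were 63.7%, 11.9% and 24.5%, so the class near full inclusion was the one that differed most. Median inclusion in single libraries ran from 46.8% to 50.9% for microexons and from 66.6% to 69.1% for longer cassette exons, and these ranges did not overlap. By size it was 14.4% to 42.5% for the 12 measured entries of 1 or 2 nt, 28.7% to 36.1% at 3 to 15 nt, 34.7% to 48.0% at 16 to 27 nt and 51.8% to 55.2% at 28 to 51 nt.

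Reading frame went with inclusion among microexons. Median inclusion lay between 40.8% and 42.8% in the 6 libraries for microexons divisible by 3, and between 58.9% and 66.4% for those not divisible by 3. For longer cassette exons the corresponding ranges were 65.4% to 66.8% and 67.5% to 72.1%. Frame was tied to size. Of measured microexons, 90.7% of those of 3 to 27 nt were divisible by 3, against 65.7% at 28 to 51 nt. Microexons whose including form matched a reference transcript had library medians of 58.5% to 65.5%, and those with a newly assembled one 31.7% to 34.8%. The part of size and of the match to the reference in the frame difference was not tested. Near the limit of 51 nt, the 103 measured exons of 49 to 51 nt had library medians of 48.6% to 63.0%, and the 84 exons of 52 to 54 nt just above it had 41.8% to 52.4%, which overlap. These are descriptions over exons, which are not replicates of a condition.

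**Figure D2:**
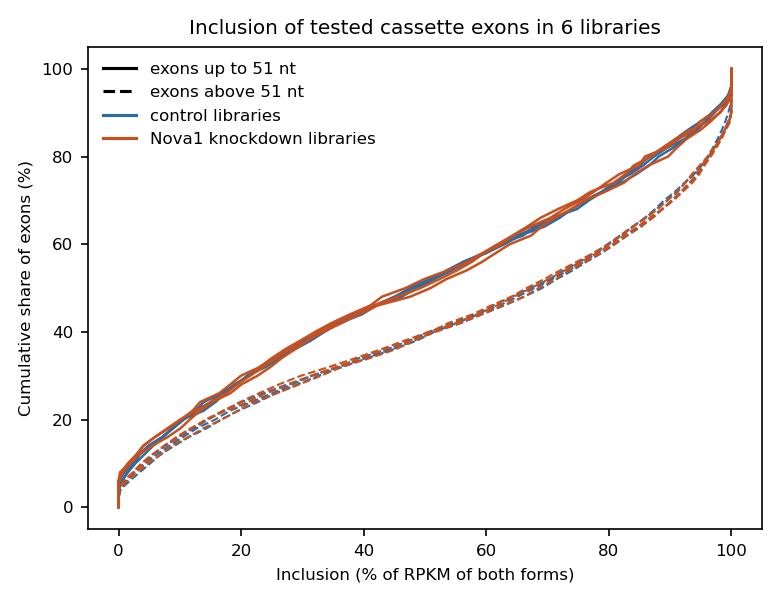
Cumulative share of measured exons (vertical axis, %) against inclusion (horizontal axis, % of the RPKM of both forms), with 1 line per library, solid for exons up to 51 nt and dashed for longer cassette exons, blue for control and orange for Nova1 knockdown. Lines of the 6 libraries lie on each other within each size class, and the solid lines cross the 50% share at inclusions of 46.8% to 50.9%, left of the dashed lines, whose medians are 66.6% to 69.1%.

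Behind these steady medians, single microexons varied widely between libraries of 1 group. The median SD over the 3 control libraries was 8.83 percentage points, close to the 8.72 points over the 3 knockdown libraries and above the 7.37 points of longer cassette exons in control. It was 13.0 points for microexons of 1 to 5 RPKM, 7.795 points at 5 to 20 RPKM and 4.99 points at 20 RPKM or more. In 112 microexons (13.6%) the controls spanned more than 50 points, while in 281 (34.1%) their SD was below 5 points. Across microexons, Pearson's r of inclusion between any 2 libraries was 0.708 to 0.771; these are correlations across exons of shared genes, given as a description. In 228 microexons (27.6%) 1 of the 2 forms was listed at 0 in at least 1 library, which can be a failed estimate; the including form was listed at 0 in all 6 libraries for 10 and the skipping form for 4.

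Microexons with reproducible partial inclusion give the firmest levels. In 146 of the 825, all 6 libraries lay within 10 percentage points, and 28 of these had a control mean between 10% and 90% (these limits were chosen after values were seen). The most abundant was a 21 nt exon of Cltc, the clathrin heavy chain that coats endocytic vesicles (chr10:76079412-76079432, plus strand; this and all coordinates are Rnor_5.0). Its inclusion was 28.2%, 21.3% and 24.0% in control and 28.5%, 25.9% and 28.5% after knockdown, at a mean of 130 RPKM for both forms, and the groups overlapped. A 24 nt exon of Picalm, a clathrin assembly protein, was included at 87.2%, 81.5% and 86.4% in control and 84.5%, 87.0% and 84.4% after knockdown (chr1:160749251-160749274, plus strand). Over pairs that differ by the exon alone, Picalm had 95.5%, 100% and 95.1% in control and 69.9%, 100% and 95.8% after knockdown. The values of Cltc were unchanged there. The 26 nt exon of Ap3s1, a subunit of the AP-3 adaptor that sorts cargo to lysosome-related organelles, was included at 84.3%, 86.8% and 84.9% in control and 84.2%, 86.9% and 85.1% after knockdown and the differences within batches were -0.097, 0.090 and 0.20 points.

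Several others of the steady group were very short or sat at low inclusion. In Vdac3, a channel of the outer mitochondrial membrane, a 3 nt exon (chr16:73933536-73933538, plus strand) was included at 8.88%, 12.5% and 12.4% in control and 10.4%, 10.5% and 8.04% after knockdown. Control inclusion was 83.3% ± 2.67 (SD, n = 3) for the 45 nt exon of Tecr, an enzyme of fatty acid elongation, and 40.0% ± 3.56 for the 18 nt exon of Faf2, a factor of protein degradation at the endoplasmic reticulum. It was 66.7% ± 5.09 for the 42 nt exon of Nras, a small GTPase, 54.6% ± 1.37 for the 42 nt exon of Tpd52l2, and 19.6% ± 2.88 for the 12 nt exon of Ttll7, an enzyme that adds glutamates to tubulin. Kinases were among them as well: the 27 nt exon of Mark2 stood at 12.1% ± 3.53, the 48 nt exon of Map2k7 at 17.0% ± 2.86 and the 30 nt exon of Map2k5 at 87.0% ± 1.92 in control libraries. After knockdown these 3 stood at 12.9% ± 2.47, 12.01% ± 0.779 and 92.0% ± 2.81. Groups did not overlap in 5 of the 28 exons, lower after knockdown in Map2k7, Vstm2l, Slc6a6 and Fam173a and higher in Map2k5. These differences lay within the 10 points that define the set, and none passed the test. Among all measured cassette exons, 3.84% did not overlap with knockdown higher and 4.5% with knockdown lower. Beside these, a 6 nt exon of Ap2m1, the cargo-binding subunit of the AP-2 adaptor, was included at 60.5%, 56.7% and 51.9% in control and 60.3%, 47.4% and 48.5% after knockdown at 125 RPKM (chr11:87116580-87116585, minus strand).

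The 8 shortest measured entries were 1 nt long, in Kif3a, Nol11, Itsn1, Slc7a2, Arhgap12, Nbea, Ptms and Herc1, and 4 of them shared a splice site with another microexon. That of Ptms, a small acidic nuclear protein, was steady at 83.8%, 83.8% and 82.9% in control and 83.6%, 90.4% and 85.6% after knockdown. For Nbea, a protein of membrane traffic, the including form was listed at 0 in all 6 libraries. In Kif3a, a kinesin motor, inclusion was 0%, 20.2% and 0% in control and 6.24%, 0% and 72.1% after knockdown, so the single high library was that of knockdown in batch 3. Whether entries of 1 nt are exons was not tested.

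No microexon passed the test between Nova1 knockdown and control. The test was limma on log2 of the ratio of including to skipping RPKM, each with 0.1 RPKM added, over all 5228 measured cassette exons with batch as a block and Benjamini-Hochberg adjustment at 0.05. It called 0 of the 825 microexons, with a smallest adjusted p of 0.869, and 0 of all 5228 exons (0.0%), with a smallest adjusted p of 0.338. At an unadjusted p below 0.05 there were 38 microexons (4.61%), 22 higher and 16 lower in knockdown, where all measured cassette exons gave 4.5% in either direction, 2.39% higher and 2.1% lower. The share among microexons was thus near the background. The median difference in inclusion over microexons was 0 points, and over all measured exons -0.018 points.

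Direction and overlap gave counts of a like order. Knockdown was higher in all 3 batches for 90 microexons and lower for 107, with 11.1% and 12.4% of all measured cassette exons doing so. The groups did not overlap, with knockdown higher, for 38 microexons, where 3.84% of all measured cassette exons did so. With knockdown lower they did not overlap for 45 microexons, against 4.5% of all measured cassette exons. In 140 the mean difference was larger than the range of the 3 controls, as in 19.1% of all measured cassette exons. The median standard error of a microexon's log2 ratio difference was 0.70, and the median 95% interval reached 1.96 to either side, so that for a typical microexon a difference of several fold in the ratio of both forms would lie inside the interval. The fit therefore does not show that inclusion was equal in both groups.

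**Figure D3:**
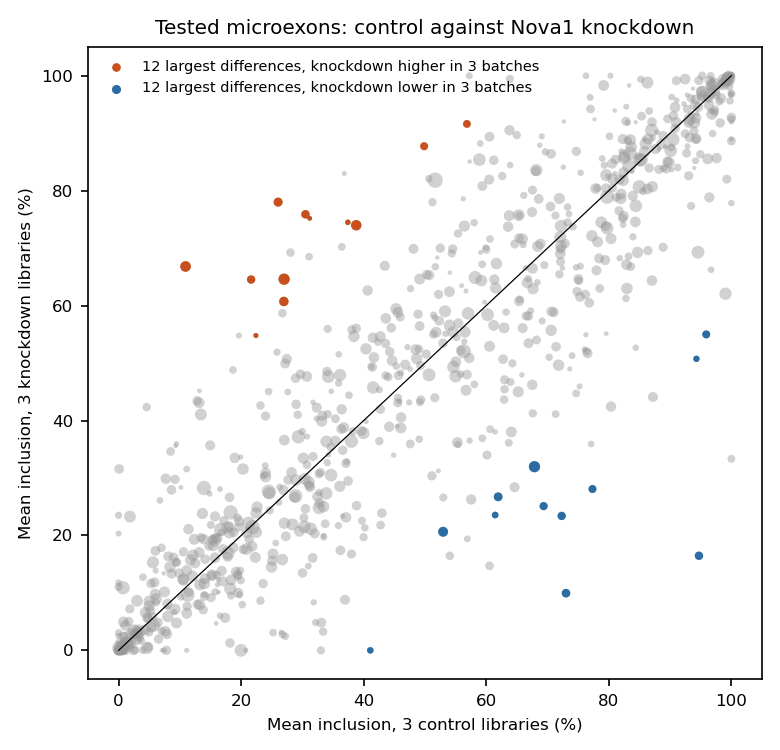
Mean inclusion over 3 knockdown libraries (vertical axis, %) against mean inclusion over 3 control libraries (horizontal axis, %), with 1 point per measured microexon, larger points for higher RPKM of both forms, and a line of equal inclusion. Coloured points are the 12 largest differences that were higher (orange) and lower (blue) in all 3 batches; none passed the test, and grey points lie on both sides of the line.

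The 12 microexons with the largest higher values in knockdown, among those higher in all 3 batches, differed by 32.4 to 55.9 percentage points. The largest was a 42 nt exon of Srrm1 (chr5:157453403-157453444, minus strand), whose product is a serine and arginine rich splicing coactivator. It was included at 8.92%, 17.9% and 5.99% in control and 85.8%, 29.7% and 84.9% after knockdown, at 12.9 RPKM. Every knockdown library was above every control, while knockdown batch 2 stayed far below the other 2 knockdown libraries. The log2 ratio difference was 4.28 with a standard error of 1.28 (limma, adjusted p = 0.869, the same for all exons named in this and the next 5 paragraphs).

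Nav2 encodes a cytoskeleton-associated protein of neurite growth, and its 45 nt exon (chr1:105940900-105940944, plus strand) was included at 40.8%, 23.6% and 13.7% in control and 96.6%, 62.1% and 75.4% after knockdown. The 24 nt exon of Gon4l, a nuclear regulator of transcription (chr2:207579457-207579480, plus strand), had the smallest unadjusted p of all microexons, 0.0048 by limma. It was included at 79.8%, 38.5% and 52.3% in control and 98.4%, 89.2% and 87.3% after knockdown. Zfp418, a zinc finger gene, carried a 39 nt exon at 28.9%, 22.2% and 40.4% in control and 69.6%, 83.0% and 75.1% after knockdown. In all 3 genes the groups were separate, and none passed the test over all exons. Over pairs that differ by the exon alone, Nav2 stayed higher after knockdown in each batch, and Gon4l had no such pair. Zfp418 there had 0%, 94.8% and 94.9% in control and 0% in every knockdown library, so its direction was the opposite in batches 2 and 3.

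In the rest of the 12, 1 control library often stood apart from its group. The 25 nt exon of Tgfbi, an extracellular matrix protein, had 76.2%, 9.36% and 7.94% in control and 76.3%, 71.7% and 77.6% after knockdown, so that batch 1 hardly differed. Arhgap26, a GTPase activator, had 2.40%, 70.8% and 76.4% in control and 98.2%, 82.2% and 82.9% after knockdown for its 30 nt exon. Dock11, an exchange factor for Cdc42, had 2.81%, 59.1% and 54.4% and then 64.5%, 82.1% and 75.3% for its 39 nt exon. In both genes the low control was that of batch 1. Exons of Trim72 (23 nt) and Rasal2 (31 nt) were also in this set, at 1.44 and 1.27 RPKM, and those of Nfasc (51 nt) and Unc13b (6 nt) are described with the genes known for microexons. Of the 12 exons, 9 were divisible by 3, 7 had under 5 RPKM, and in 6 the controls spanned more than 50 points. Over pairs that differ by the exon alone, Tgfbi and Dock11 stayed higher after knockdown in each batch. Rasal2 there had 100%, 100% and 84.3% in control and 54.9%, 45.6% and 100% after knockdown, lower in batches 1 and 2.

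The 12 microexons with the largest lower values in knockdown differed by 32.3 to 78.2 points and lay in 11 genes. Cryzl1, a quinone oxidoreductase homologue, held 2 of them. Its 42 nt exon (chr11:35485874-35485915, minus strand) was included at 98.9%, 89.8% and 95.4% in control and 0%, 17.8% and 31.6% after knockdown. Its 45 nt exon (chr11:35476127-35476171) was included at 65.0%, 70.1% and 49.2% in control and 10.1%, 42.9% and 17.6% after knockdown. Both exons have the same skipping RPKM in every library (0.0693, 0.249 and 0.288 in control, then 2.40, 3.14 and 2.39), so their values share a source and are not independent. For both exons the groups were separate, but their forms held only 28.9% and 14.7% of the RPKM of the gene, and for the 45 nt exon both forms together fell to 96 reads in 1 library.

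Htt, the huntingtin gene, had a 48 nt exon (chr14:81901892-81901939, minus strand) at 86.0%, 69.2% and 76.9% in control and 28.4%, 0.557% and 55.3% after knockdown. In Gng12, a G protein gamma subunit, the 34 nt exon had 65.5%, 90.4% and 63.1% in control and 29.8%, 0% and 0% after knockdown, in forms that held 12.3% of the RPKM of the gene. Cyp20a1, a cytochrome P450 gene, had the smallest batch-to-batch spread of the 12. Its 50 nt exon (chr9:66947467-66947516, plus strand) stood at 84.4%, 51.02% and 68.2% in control and 54.1%, 18.2% and 23.6% after knockdown, a difference of -35.9 ± 7.63 points (SD over 3 batches), although the groups overlapped. It was also among the better covered of these exons, at 18.1 RPKM.

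Rbfox2, itself a splicing regulator, carried a 51 nt exon at the size limit (chr7:118305575-118305625, minus strand) with 98.5%, 95.7% and 93.5% in control and 79.6%, 21.5% and 63.9% after knockdown; both forms held 20.4% of the RPKM of the gene. Tenm3, a teneurin of synapse formation, had a 21 nt exon at 89.8%, 40.7% and 77.5% in control and 66.5%, 5.74% and 3.06% after knockdown. The 3 nt exon of Greb1l was included at 93.9%, 91.1% and 97.9% in control and 86.6%, 65.4% and 0.204% after knockdown, so most of its difference lay in batch 3. Ptprt, a receptor phosphatase, had 0.333%, 97.3% and 25.6% in control and was listed at 0 in every knockdown library for its 30 nt exon. A 36 nt exon of Zdhhc20, a palmitoyltransferase, stood at 41.9%, 84.5% and 32.5% in control and 24.1%, 19.2% and 18.6% after knockdown. A 24 nt exon of Rapgef2 was also in the set. Of the 12 exons, 10 were divisible by 3 and 10 had under 5 RPKM. Over pairs that differ by the exon alone, Htt, Gng12 and Cyp20a1 kept their values, but other exons did not. Tenm3 there had 0% in control and 76.5% and 47.8% after knockdown in batches 2 and 3, and Greb1l 0% and then 100%. Zdhhc20 had 0% in control and 100% after knockdown in batches 1 and 3, so these 3 had the opposite direction. Rbfox2 had 0%, 64.6% and 0% in control and 0% after knockdown. Rapgef2, whose values are given with the signalling genes, was higher after knockdown in batches 1 and 3 over such pairs.

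**Figure D4:**
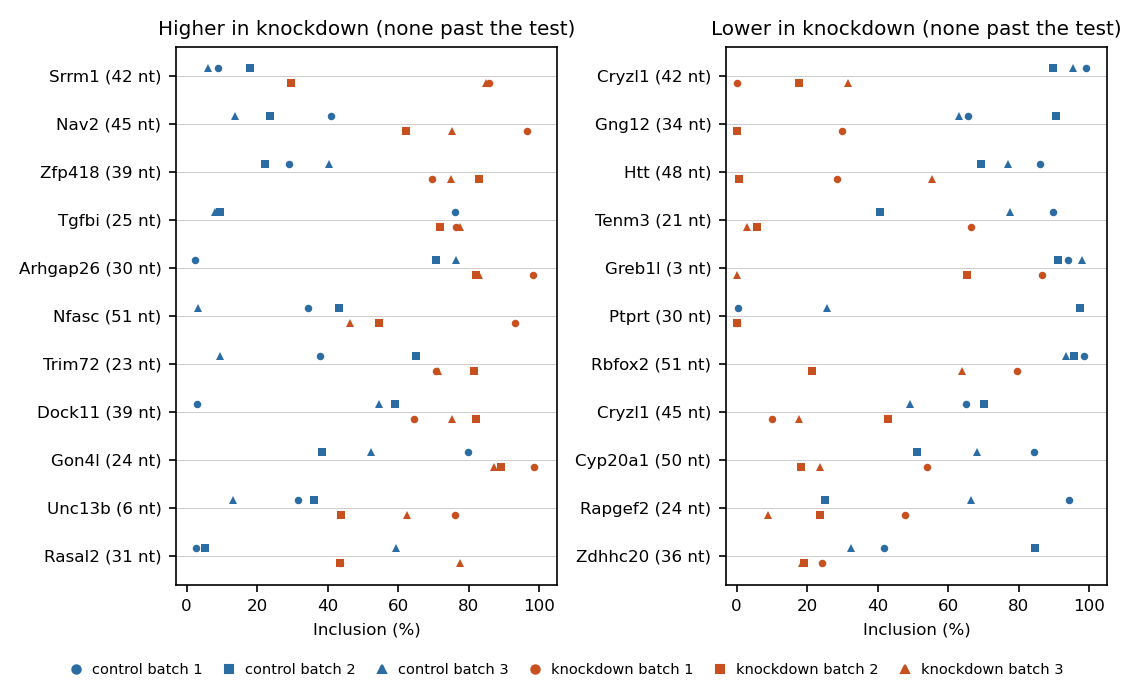
Inclusion (horizontal axis, %) in every library for 11 of the 12 microexons with the largest higher (left) and 11 of the 12 with the largest lower (right) values in knockdown among those with 1 direction in all 3 batches; blue is control, orange is knockdown, and circles, squares and triangles are batches 1, 2 and 3. Colours separate in 9 of 11 rows on the left and 8 of 11 on the right, and single libraries stand apart within a colour in many rows, as in Tgfbi and Greb1l. Rows were picked for large differences in these same values, which favours separate colours. Among all measured cassette exons, 3.84% were separate with knockdown higher and 4.5% with knockdown lower.

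Differences were smaller where coverage was higher: the median size of the difference was 8.11 points at 1 to 5 RPKM and 3.17 points at 20 RPKM or more, and 7.08% and 2.44% of microexons had an unadjusted p below 0.05 by limma. Of the 12 most abundant microexons, 2 had separate groups. Among all measured cassette exons, 3.84% were separate with knockdown higher and 4.5% with knockdown lower. The 4 exons that follow were chosen for large differences or small p-values after their values were seen. The most abundant measured microexon was a 30 nt exon of Acly, ATP-citrate lyase, the enzyme that makes cytosolic acetyl-CoA (chr10:88211382-88211411, minus strand, 339 RPKM). It was included at 65.2%, 26.3% and 63.4% in control and 87.2%, 80.9% and 77.3% after knockdown; the groups were separate, with control batch 2 apart from the other controls (limma, adjusted p = 0.869). A 48 nt exon of Pxk, a PX-domain protein with a kinase-like domain, stood at 75.2%, 93.2% and 90.5% in control and 98.6%, 100% and 97.8% after knockdown at 31.1 RPKM. A 3 nt exon of Atl3, an atlastin that shapes the endoplasmic reticulum, stood at 19.5%, 3.54% and 0% in control and 51.2%, 32.1% and 6.29% after knockdown at 11.5 RPKM. The groups overlapped in Atl3, but knockdown was the higher library of each batch. The 6 nt exon of C1s, a complement protease, stood at 39.9%, 34.8% and 21.8% in control and 0%, 11.9% and 2.65% after knockdown, at a low 2.53 RPKM.

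A list of 104 genes tied to neural or endocrine microexons was used to look at known members whatever their result. Of these genes, 53 held a microexon in this assembly and 46 a measured one, giving 72 measured exons. The other 7 genes, among them L1cam, Nrxn2, Ptprd and Cacna2d2, held exons below 1 RPKM. Of the 72, 57 (79.2%) had a control mean between 10% and 90%, 10 were below 10% and 5 above 90%, and 68 were divisible by 3. Median inclusion over the list was 32.4% to 37.9% in the 6 libraries, compared with 46.8% to 50.9% for all measured microexons. None passed the test, and 4 had an unadjusted p below 0.05 by limma (5.56%, against 4.5% of all measured cassette exons). In all 3 batches 5 were higher and 9 lower, where 11.1% of all measured cassette exons were higher and 12.4% lower. They are grouped below by the role of the protein; the grouping was made after values were seen.

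Genes of exocytosis and calcium entry held 17 measured microexons in 10 genes. A 6 nt exon of Cacna1a, the pore of P/Q-type calcium channels (chr19:36685352-36685357, plus strand), was among the steadiest, with 32.1%, 35.8% and 30.2% in control and 29.3%, 37.6% and 25.3% after knockdown. Its 35 nt exon had 44.5%, 37.5% and 55.0% and then 53.95%, 39.7% and 49.9%. The 21 nt exon of Cacna2d1, an auxiliary calcium channel subunit, was measured at 41.5 RPKM with 38.2%, 40.6% and 19.2% in control and 28.1%, 30.1% and 16.1% after knockdown. Knockdown was the lower library of each batch there, by a mean of -7.91 ± 4.12 points (SD over 3 batches; limma, adjusted p = 0.876), within the control range. Over pairs that differ by the exon alone, the Cacna2d1 exon was at 2.22% in knockdown batch 1 and 0% in every other library. In contrast, the 6 nt exon of Cacna1b, the pore of N-type channels, spread from 7.05% to 86.6% within control, and the 30 nt exon of Unc13a, a vesicle priming factor, from 0% to 98.4%.

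Unc13b, the priming factor paralogue, carried 3 measured microexons. One of 6 nt (chr5:63212140-63212145, plus strand) had 31.6%, 36.3% and 13.0% in control and 76.0%, 43.7% and 62.5% after knockdown, with separate groups and 37 nt of intron downstream. Over pairs that differ by the exon alone, this exon had 7.60%, 0% and 98.3% in control and 100%, 23.1% and 68.3% after knockdown. Its direction there was the opposite in batch 3. A second 6 nt exon upstream of it, with 28 nt of intron upstream, had 6.93%, 2.47% and 11.6% in control and 0%, 2.68% and 50.9% after knockdown, where knockdown batch 3 alone was high. Both 6 nt exons have the same skipping RPKM in every library, so their values are not independent. Rims2, a scaffold of release sites, had a 42 nt exon at 14.995%, 22.7% and 17.3% in control and 17.4%, 4.71% and 6.42% after knockdown. Its 48 nt exon had 75.4%, 49.5% and 66.2% and then 28.2%, 11.3% and 68.8%. In Rims2 the groups overlapped at both exons, with knockdown batch 1 and knockdown batch 3, respectively, inside the control range. Plcb4, a phospholipase C downstream of Gq, had a 37 nt exon at 82.1%, 99.0% and 98.1% in control and 72.9%, 89.0% and 85.8% after knockdown, lower in each batch by a mean of -10.5 ± 1.62 points (SD over 3 batches), although the groups overlapped (limma, adjusted p = 0.869).

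Adhesion proteins and receptors held 20 measured microexons in 10 genes. In Agrn, whose short exons at the Z site control the clustering of acetylcholine receptors, a 12 nt exon (chr5:177068801-177068812, minus strand) had 30.8%, 64.6% and 59.6% in control and 67.6%, 65.7% and 67.0% after knockdown. Its 24 nt exon had 32.7%, 5.99% and 11.6% and then 5.23%, 23.4% and 33.0%, and its 33 nt exon was listed at 0 in all 6 libraries. Which of these exons corresponds to which published Agrn exon was not determined. Nrcam, a neuronal adhesion molecule of the L1 family, had a 30 nt exon at 82.9%, 86.8% and 81.2% in control and 91.9%, 90.8% and 80.2% after knockdown, and an 18 nt exon at 17.8% ± 9.48 and 21.4% ± 3.28 (SD, n = 3). Sgce, epsilon-sarcoglycan, had a 27 nt exon with separate groups, at 93.7%, 72.9% and 64.3% in control and 95.2%, 98.5% and 95.1% after knockdown, where batch 1 differed little.

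In Nfasc, neurofascin, 1 control library stood apart. The 45 nt exon had 79.7%, 86.8% and 2.79% in control and 76.1%, 64.3% and 81.2% after knockdown, and its 51 nt exon (chr13:54474173-54474223, minus strand) 34.4%, 43.3% and 3.25% and then 93.0%, 54.5% and 46.3%. Control batch 3 was low at both exons. Over pairs that differ by the exon alone, the 51 nt exon had 0%, 1.60% and 100% in control and 100%, 100% and 25.8% after knockdown. Its direction there was the opposite in batch 3. Among receptor tyrosine phosphatases of the LAR family, the 27 nt exon of Ptprs stood at 98.8% ± 0.735 in control and 98.9% ± 0.350 after knockdown, and the 33 nt exon of Ptprf at 2.55% ± 0.120 and 3.37% ± 2.70. The 12 nt exon of Ptprs was less steady, at 99.8%, 72.3% and 99.5% in control and 99.3%, 80.7% and 99.1% after knockdown, low in batch 2 of each group. The 27 nt exon of Ptprf had 96.7%, 99.2% and 87.7% in control and 70.7%, 99.2% and 37.9% after knockdown, so its difference lay in batches 1 and 3.

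Membrane traffic genes held 9 measured microexons in 7 genes, none with the same direction in all 3 batches. Trappc9, a subunit of the TRAPP tethering complex, had a 27 nt exon at 64.9%, 65.1% and 66.1% in control and 65.4%, 56.6% and 60.3% after knockdown. Snx14, a sorting nexin, had a 27 nt exon at 11.0%, 12.2% and 10.1% in control and 16.1%, 10.2% and 15.4% after knockdown. The 12 nt exon of Dnm2, the GTPase that cuts vesicles from membranes, was at 24.6% ± 7.45 and 27.4% ± 6.96. Over pairs that differ by the exon alone, the Dnm2 exon was at 0% in all 6 libraries, while the Snx14 values were unchanged. Itsn1, an endocytic scaffold, had a 15 nt exon at 3.36%, 74.8% and 69.4% in control and 29.1%, 38.4% and 62.1% after knockdown, with control batch 1 apart from the rest. In Mon2, a regulator of endosome to Golgi traffic, the 3 nt and the 18 nt exons were read from transcripts with the same total RPKM, and both were high in control batch 2 and knockdown batch 1 and lowest in knockdown batch 3.

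Synj1, the phosphatase synaptojanin 1 that strips clathrin from vesicles, held 5 measured microexons, the most of any gene, and was chosen for this after its values were seen. Its 48 nt exon was included at 87.8%, 97.7% and 96.8% in control and 97.6%, 94.3% and 95.7% after knockdown. Its 24 nt exons stood at 73.7%, 86.9% and 86.7% in control and 79.4%, 82.3% and 65.0% after knockdown for the upstream one, and at 12.8%, 2.83% and 3.65% and then 2.37%, 6.35% and 5.83% for the downstream one. Its 39 nt exons stood at 32.4%, 13.3% and 13.3% in control and 23.2%, 19.4% and 24.8% after knockdown for the upstream one, and at 19.6%, 12.2% and 15.6% and then 6.61%, 18.1% and 5.86% for the other. Groups overlapped at each of the 5, and at each of them control batch 1 was the control farthest from the other 2.

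**Figure D5:**
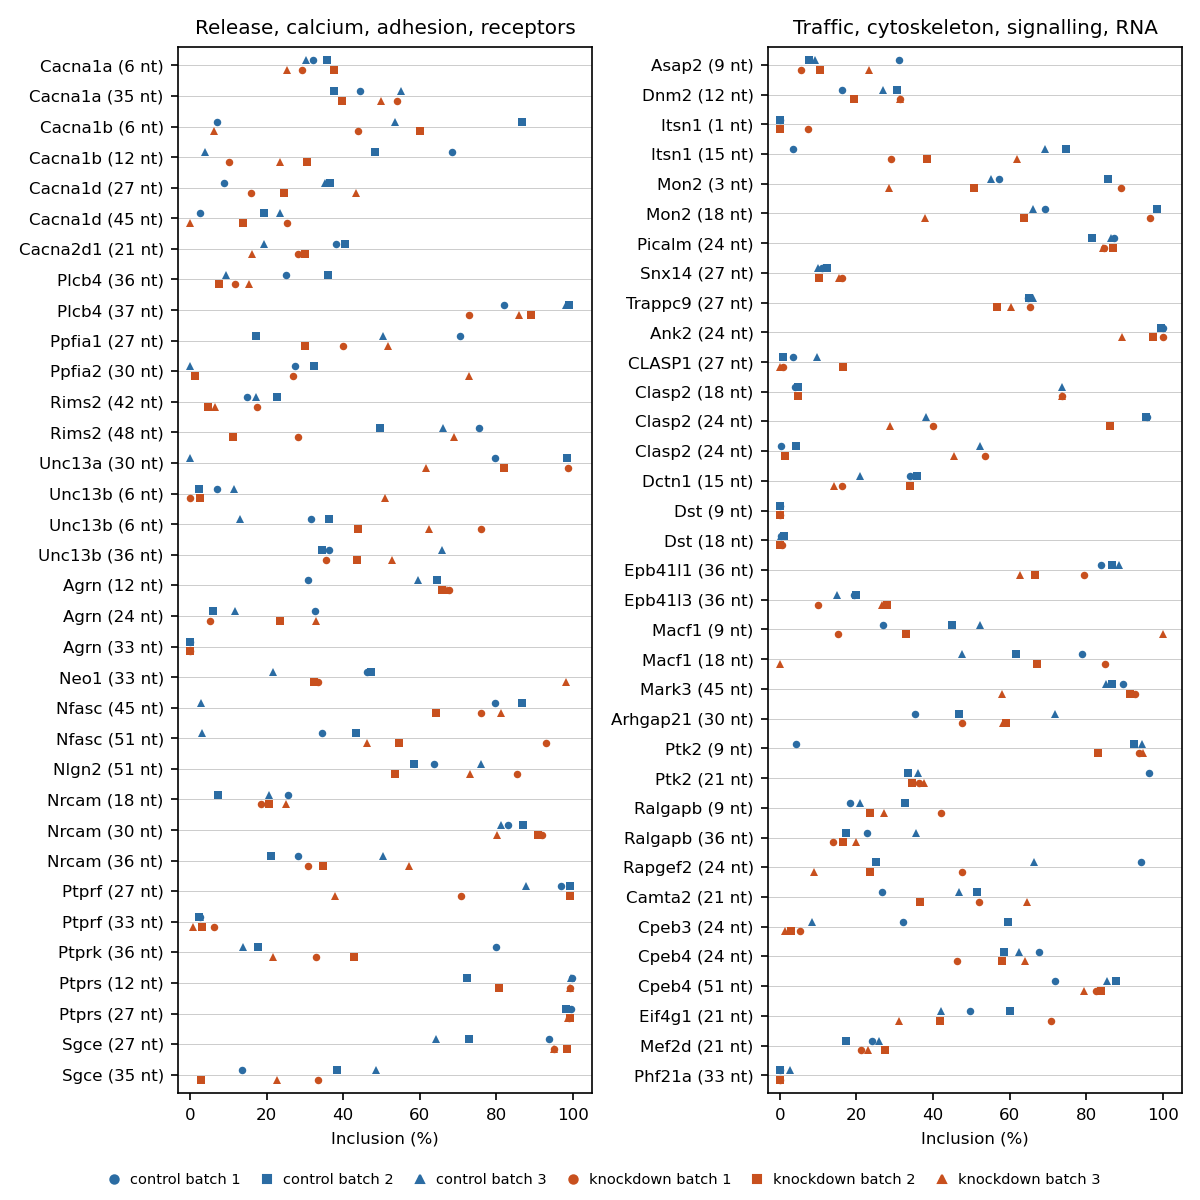
Inclusion (horizontal axis, %) in every library for 69 of the 72 measured microexons, in 45 genes on the list, 1 row per exon, ordered by role; blue is control, orange is knockdown, and circles, squares and triangles are batches 1, 2 and 3. Tight rows such as Cacna1a (6 nt), Picalm and Ptprs (27 nt) stand beside rows that span most of the axis within 1 colour, such as Cacna1b (6 nt) and Unc13a, and no row passed the test.

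Cytoskeletal genes held 13 measured microexons in 9 genes, 3 of them lower and 0 higher in all 3 batches. Among all measured cassette exons, 12.4% were lower and 11.1% higher in all 3 batches. Of the 3 lower exons, 1 was a 36 nt exon of Epb41l1, a protein 4.1 that links membrane proteins to actin (chr3:159102893-159102928, minus strand). It had 83.9%, 86.7% and 88.5% in control and 79.4%, 66.6% and 62.7% after knockdown, with separate groups (limma, adjusted p = 0.869). Over pairs that differ by the exon alone, Epb41l1 was at 0% in control batch 3 and knockdown batch 2. In the other libraries both forms of such pairs were listed at 0, so no value could be given. Its paralogue Epb41l3 had a 36 nt exon at 18.0% ± 2.69 in control and 21.5% ± 10.1 after knockdown. A 15 nt exon of Dctn1, a subunit of the dynein activator dynactin, had 34.1%, 35.8% and 21.1% in control and 16.2%, 33.9% and 14.3% after knockdown. Over pairs that differ by the exon alone, it had 0%, 0.541% and 18.6% in control and 5.75%, 0% and 0.138% after knockdown. Dst, dystonin, included its 9 nt and 18 nt exons at 1.06% or less in all 6 libraries.

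Some genes with several microexons had exons whose inclusion differed in opposite directions between libraries. Clasp2, a microtubule stabiliser, had an 18 nt exon at 3.86%, 4.83% and 73.7% in control and 73.8%, 4.78% and 73.6% after knockdown. Its 24 nt exon just upstream had 95.8%, 95.5% and 38.3% in control and 40.1%, 86.3% and 28.7% after knockdown, high in the libraries where the 18 nt exon was low; it was lower after knockdown in each batch, by -55.7, -9.23 and -9.55 points, with overlapping groups. In Macf1, a linker of actin and microtubules, knockdown batch 3 stood alone, at 100% for the 9 nt exon and 0.0217% for the 18 nt exon, while the other 5 libraries lay between 15.1% and 52.4% and between 47.6% and 84.8%. Ptk2, focal adhesion kinase, had a 9 nt exon at 4.33% in control batch 1 and 83.0% to 94.8% in the other 5 libraries, and a 21 nt exon at 96.5% in control batch 1 and 33.4% to 37.7% in the others. In these genes 1 read estimate of a multi-exon transcript feeds every microexon it carries, so their values are not independent.

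Signalling and RNA-related genes completed the list. Rapgef2, an exchange factor for Rap, had a 24 nt exon at 94.3%, 25.1% and 66.5% in control and 47.7%, 23.6% and 8.89% after knockdown, lower in each batch with overlapping groups. Ralgapb, a subunit of the Ral GTPase activator, had a 36 nt exon at 25.2% ± 9.51 and 16.8% ± 2.92, also lower in each batch. Over pairs that differ by the exon alone, Rapgef2 had 0%, 100% and 0% in control and 86.3%, 14.5% and 9.69% after knockdown. Its direction there was the opposite in batches 1 and 3. Among RNA-binding proteins, a 24 nt exon of Cpeb3 (chr1:263221018-263221041, minus strand) had 32.1%, 59.6% and 8.42% in control and 5.40%, 2.91% and 1.48% after knockdown, with separate groups (limma, adjusted p = 0.869). Over pairs that differ by the exon alone, Cpeb3 had 9.08%, 91.6% and 82.5% in control and 61.6%, 6.39% and 7.66% after knockdown, higher in batch 1. The 24 nt exon of its paralogue Cpeb4 had 67.6%, 58.6% and 62.5% in control and 46.3%, 58.1% and 64.0% after knockdown, where the groups overlapped. The 21 nt exon of Mef2d, a transcription factor of muscle and neurons, was at 22.4% ± 4.50 and 23.9% ± 3.31, that of Eif4g1, the translation initiation scaffold, at 50.7% ± 8.95 and 47.9% ± 20.6, and the 33 nt exon of Phf21a was listed at 0 in 5 of 6 libraries.

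RNA of known regulators of microexons was looked at next, with 28 genes including Nova1, of which 24 were measured. Only Nova1 passed the test (1 of 24, against 1.71% of all 15983 genes tested). Srrm3 had 1.62, 4.40 and 0.7502 RPKM in control and 1.86, 3.90 and 1.30 RPKM after knockdown, highest in batch 2 of each group. Srrm4 was near 0 throughout, at 0.0869 RPKM ± 0.0941 in control and 0.0773 RPKM ± 0.0555 after knockdown (SD, n = 3). Ptbp1, a repressor of neuronal exons, had 10.6, 7.06 and 8.72 RPKM in control and 18.2, 7.15 and 2.22 RPKM after knockdown, and the spread of the knockdown libraries enclosed all controls. Celf3 was at 43.5 RPKM ± 14.1 and 44.4 RPKM ± 17.0, Elavl4 at 15.3 RPKM ± 5.26 and 16.1 RPKM ± 3.61, and Nova2 at 1.68 RPKM ± 0.606 and 2.96 RPKM ± 1.69. In CPM the levels of Nova2 lay closer, at 7.94 ± 1.78 in control and 9.03 ± 1.09 after knockdown (limma voom, adjusted p = 0.24). Rbfox2 RNA was at 16.0 RPKM ± 3.71 and 18.4 RPKM ± 7.13. Khdrbs2, Mbnl3 and Elavl3 were too low to test, and no gene model was found under the symbol Qki.

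Few host genes of measured microexons passed the test in total RNA. Of 700 host genes, 8 rose and 7 fell (2.14%, against 1.71% of all genes tested, with 0.513% higher and 1.2% lower). The median log2 fold change was 0.079 over host genes and 0.0035 over all genes. Those that rose included Slc6a6, the taurine transporter (log2 fold change 0.37, standard error 0.044, adjusted p = 0.042, limma voom), Ulk2, a kinase of autophagy (0.52), and Slc8a3, a sodium-calcium exchanger (0.73). The others that rose were Tpcn1, Atp2b4, Fam13a, Tp53inp1 and Mfsd6. Those that fell were Hmgn3, a nucleosome-binding protein (fell by 0.51 on the log2 scale, adjusted p = 0.036, limma voom), Zdhhc20 (fell by 0.55), Sh3glb1, Sdf4, Agfg1, Ikbkg and Tmem134. Zdhhc20 was the 1 gene among these 15 that also held an exon among the 24 largest differences in inclusion, and its inclusion difference did not pass the test. Without batch 1 or without batch 2, 0 host genes passed, and without batch 3, 4 did.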

How the data were processed

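Transcripts of 6 RNA-seq libraries were used, with group and batch number taken from their titles. TopHat and the rat build Rnor_5.0 are named in the submitters' processing notes. Which program assembled the transcripts and shared reads out among them is not given in the sources used here, and neither is strand. The authors deposited an assembly of 60887 transcripts in 24579 gene models and, for each library and transcript, estimated reads and RPKM as attribute text beside the length.

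Cassette exons were found from exon coordinates. An exon with several pairs of flanking splice sites (53 of the microexons) was represented by the pair of highest RPKM, and inclusion was 100 times the RPKM of including transcripts over that of both forms. Log2 ratios (0.1 RPKM added) of the 5228 exons with at least 1 RPKM were tested with limma 3.58.1 in R 4.3.3, with batch as a block and Benjamini-Hochberg adjustment, leaving 2 residual degrees of freedom per exon. The 2 measured microexons with both forms at 0 in a library enter there as a ratio of 1; neither is named. Gene totals of estimated reads (at least 10 in a library of median depth in 3 libraries, and 15 in total) were normalised by the trimmed mean of M values and fitted with limma voom, since the estimated reads are fractional; both scripts were tested on simulated data. Batch pairs the libraries by design. Deviations of microexon inclusion from the group mean correlated within batches at 0.050, 0.14 and 0.12. Between control and knockdown libraries of different batches they correlated at -0.21 to 0.098, which overlaps the values within batches.

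Microexons named are the 12 largest differences in each direction with 1 sign in 3 batches and a gene symbol, all in a list of 104 genes, the shortest, and those stated as chosen after values were seen. Some exons and markers these rules take are not reported here. The members and lists were chosen with earlier results of these data known. Alternatives covered the block, each batch, pseudocounts, filters, flanking pairs, reads in place of RPKM, the prior and gene scaling. No genome of this build was used, so no exon sequences are printed.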

Additional observations from a re-analysis of the deposited data

How the results depend on the processing

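No microexon passed the test in any of 15 alternatives to it, of which 13 were planned. The 2 restrictions to exons with both forms above 0 in every library and to 3 to 27 nt were chosen after seeing the data. That to 3 to 27 nt took its p-values from the main fit without a refit. It could therefore call none and is not a further test. Without the replicate block, 1 cassette exon of any size passed. Microexons with an unadjusted p below 0.05 numbered 38, and 16 with a filter of at least 5 RPKM, 24 with estimated reads and 13 at 3 to 27 nt, where fewer exons were tested in the first and last. Leaving out each batch gave 36 to 40. Median control inclusion was 49.1%, and 43.5% at 5 RPKM or more, 51.5% for pairs that differ by the exon alone, 47.6% with both forms above 0, and 47.6% to 48.8% without each replicate. Nova1 fell by 1.12 on the log2 scale with and without the block, but without the replicate block its adjusted p was 1.00 and 0 regulators and 0 host genes passed. With limma-trend on log2 RPKM the Nova1 value was -0.73 with 0.1 added and -0.54 with 1 added (adjusted p = 0.33 in both), with 0 regulators and 0 host genes called. Without each batch it was -1.25 to -0.98 (adjusted p 0.035 to 0.145; past the threshold only without batch 3), 0 to 1 regulators were called and 0 to 4 host genes instead of 15; library totals gave 5 host genes. The cause of these shifts was not tested. For the 114 named exons, 1386 of 1481 values under alternatives kept their direction, 95 had the opposite sign in 58 exons, and none passed. As to depth, 19 microexons had under 100 assigned reads for both forms in their least covered library.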

Other observations

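Other genes with 3 measured microexons, chosen after values were seen, add levels for motor and scaffold proteins. KIF1A, a kinesin that carries dense core vesicles, had a 27 nt exon (chr9:99845843-99845869, minus strand) at 18.3%, 57.9% and 87.6% in control libraries 1, 2 and 3 and at 74.2%, 12.2% and 61.6% under knockdown, and a second 27 nt exon further upstream (chr9:99876130-99876156) at 0.693%, 3.6% and 1.26%, then 42.6%, 0.719% and 26.4%. At the second exon the controls were all low and 2 of the 3 knockdown libraries were high, with batch 2 low in both groups. Myo18a, an unconventional myosin, had a 12 nt exon at 99.8%, 50.7% and 61.2% in control and 100%, 59.7% and 99.5% under knockdown. Its 36 nt exon stayed between 7.38% and 18.6% in all 6 libraries. None of these exons passed the test.

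Otud4, a deubiquitinase, carried exons of 48 and 49 nt on the minus strand that share 1 splice site and differ by 1 nt at the other. The 49 nt form stood at 20.9%, 48.4% and 22.2% in control and 26.2%, 34.8% and 12.9% under knockdown, and the 48 nt form at 0%, 9.62% and 5.18%, then 0%, 9.45% and 0%, so the 49 nt form was the higher of the pair in every library. A 5 nt exon in a gene model without a symbol (chr20:5873971-5873975, minus strand, 142 RPKM) had 16.3%, 8.17% and 17.3% in control and 25.5%, 28.9% and 30.3% under knockdown. Its groups did not overlap (limma, adjusted p = 0.869), and its flanking introns were 117 and 55 nt in the assembly.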
